A study of Homo sapiens with 6 samples.

Results

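A set of 10 genes for amino acid transporters of the plasma membrane was followed in CAL27 cells, an established human line of tongue squamous carcinoma. The genes were taken by name, and all 10 were found among the 58243 genes that the files list. They encode the cystine carrier light chain (SLC7A11), a heavy chain shared by several carriers (SLC3A2), and carriers of large neutral (SLC7A5, SLC43A1), cationic (SLC7A1) and small neutral amino acids (SLC1A4, SLC1A5, SLC38A1, SLC38A2) and of glycine (SLC6A9). Cells received 30 mM metformin, a biguanide used against high blood glucose, or PBS, a saline vehicle, for 48 h. Each group held 3 mRNA sequencing libraries. All cells grew in DMEM with fetal bovine serum and antibiotics, and 1 cell line at 1 dose and 1 time was studied. The labels do not say whether the libraries came from separate cultures, so p-values reflect only how these libraries varied, and that variation may be technical.

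Amino acids that a cell cannot make, or makes too slowly, enter through such carriers, many of which exchange one amino acid for another. SLC7A11 and SLC7A5 are light chains that each join SLC3A2 through a disulfide bond, and SLC3A2 brings them to the cell surface. SLC7A11 takes up cystine in exchange for glutamate, and the cysteine it supplies feeds glutathione synthesis. In many cell types, lack of amino acids and other stress raise the transcription factor ATF4, which binds C/EBP-ATF response elements (CARE) near several of these genes together with a C/EBP partner.

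Levels are deposited FPKM values, that is, fragment counts scaled for transcript length and for the mapped fragments of the library, so levels of different genes can be compared per length. The summed FPKM of a library was 200842 to 208899. The spacing of low values of genes with 1 annotated transcript put 1 FPKM at about 7.81 to 8.82 fragments per kilobase of transcript, depending on the library. All 9 fixed epithelial markers were detected and tested, with a summed level of 1176 to 1237 FPKM with PBS and 548 to 567 with metformin. Of these, 7 were lower, among them the basal keratins KRT5 and KRT14, and EPCAM and CDH1 were higher. KRT17, another of the 7, did not pass when PBS replicate 1, PBS replicate 2 or metformin replicate 1 was left out (limma adjusted p = 0.0559, 0.0549 and 0.0584), nor did CDH1 with median-of-ratios scaling (0.0508). The part of this shift in the results below was not tested. Of 14 markers of fibroblasts, endothelium and blood cells, DCN, PDGFRA and CD79A were listed at 0 in every library and 4 were tested. CDH5, an endothelial cadherin, fell 3.04-fold from 6.17 ± 0.516 to 2.03 ± 0.0758 FPKM (SD, n = 3), while COL1A1, a fibroblast collagen, rose 1.75-fold from 1.36 ± 0.200 to 2.38 ± 0.221 and CD68, a macrophage protein, 1.55-fold from 2.15 ± 0.207 to 3.33 ± 0.319. COL1A2, another fibroblast collagen, was too low to be tested and went the other way from COL1A1. It was listed at 0.161, 0.216 and 0.25 FPKM with PBS and at 0.0226, 0 and 0.0105 with metformin. The part of these genes in the results was not tested either. CD68 shares 1789 exon bases with AC016876.2 on the same strand and 150 with the antisense gene AC016876.1. AC016876.2 had 4.0 ± 3.1 FPKM with PBS and 4.1 ± 0.98 with metformin (SD, n = 3), and fragments of the shared bases cannot be assigned to either gene. Without the haemoglobin gene HBB, the 14 markers summed to 10.1 to 10.7 FPKM with PBS and 7.80 to 9.73 with metformin. HBB stood apart in both libraries numbered 3, at 84.9 FPKM with PBS and 109 with metformin, against 8.66 to 18.1 in the other 4. Its part in the results was not tested, but the count of the 10 genes past the threshold is also given without these libraries.

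Windows from 250 bases before to 50 bases after annotated starts were available from RefSeq (GRCh38.p14) for 9 of the 10 genes, 16 windows in all. SLC7A11 was not matched. The windows were searched on both strands for the CARE core TGATGNAA, for the antioxidant response element core TGACNNNGC (bound by NRF2 with a small MAF protein) and for the E-box CACGTG (bound by MYC, TFEB and TFE3). The 3 motifs do not contain one another. The CARE core was found in 1 window each of 5 genes: SLC1A4, SLC3A2, SLC38A1, SLC7A1 and SLC1A5. Of all 35116 RefSeq windows, 3.62% held it, and of all 27305 genes with a window, 4.46% did. These 5 matches are shown with their flanks because 5 of the 9 genes with a window held the core. Those of CEBPG and CHAC1, which code for no transporter and are described below, are set beside them. Both CEBPG and CHAC1 rose, and no role of any match was tested. SLC38A2, SLC6A9, SLC7A5 and SLC43A1 had no match in their windows. In the lists below, 1 of 21 other plasma membrane transporters and 0 of 17 intracellular transporters with a window held the CARE core. It was held by 1 of 13 cysteine and glutathione genes and by 2 of 17 transcription factors and partners. Besides CEBPG and CHAC1 these were ATF3 and SLC1A3, the latter named after its value was seen. The matches of ATF3 and SLC1A3 are not printed. SLC1A3 went from 6.2 ± 0.50 to 5.3 ± 0.50 FPKM (SD, n = 3) and did not pass (limma adjusted p = 0.0953). Each line runs 5′ to 3′ on the strand of the gene, and capitals mark the match, which in SLC1A4, SLC3A2 and CHAC1 is the reverse complement of the core.
SLC1A4, chr2:64989381-64989410, plus strand: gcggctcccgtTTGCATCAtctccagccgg
SLC38A1, chr12:46266502-46266531, minus strand: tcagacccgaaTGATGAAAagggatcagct
SLC7A1, chr13:29595663-29595692, minus strand: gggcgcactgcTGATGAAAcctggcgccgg
SLC1A5, chr19:46784893-46784922, minus strand: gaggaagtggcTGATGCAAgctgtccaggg
SLC3A2, chr11:62881725-62881748, plus strand: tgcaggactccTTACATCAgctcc
CEBPG, chr19:33374060-33374089, plus strand: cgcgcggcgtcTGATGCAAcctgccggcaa
CHAC1, chr15:40953251-40953280, plus strand: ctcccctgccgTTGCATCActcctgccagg

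The matches of SLC1A4 and SLC38A1 began 7 and 4 bases before an annotated start and lay in introns of the gene models of GENCODE 29. That of SLC7A1 began 7 bases past the start, in an exon. That of SLC3A2 began 37 bases past the start of 1 of its 3 windows, also in an exon. The SLC1A5 match lay 97 bases before the most downstream of the 3 annotated starts of that gene, in an exon of the longer transcripts. The antioxidant core was found in 4 of the 16 windows, of SLC3A2, SLC7A1, SLC7A5 and SLC1A5 (13.4% of all windows, 16.1% of all genes). The E-box was found in 3 of the 16, of SLC43A1, SLC7A5 and SLC1A5 (7.26% of all windows, 8.78% of all genes). The matches of SLC3A2 and SLC7A5 are shown because these 2 genes did not pass the test below.
SLC3A2, antioxidant core, chr11:62881652-62881680, plus strand: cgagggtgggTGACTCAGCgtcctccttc
SLC7A5, antioxidant core, chr16:87869491-87869519, minus strand: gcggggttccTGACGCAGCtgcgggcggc
SLC7A5, E-box, chr16:87869620-87869649, minus strand: ggccggacgacgCACGTGctccgagctggg

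The comparison of metformin with PBS asked which of these transcripts change in carcinoma cells exposed to the drug. SLC6A9, SLC7A11, SLC1A4, SLC38A1 and SLC1A5 rose between 1.98-fold and 4.70-fold, SLC38A2 rose 1.53-fold and SLC7A1 1.28-fold. SLC7A5, by far the most abundant of the 10, and its partner SLC3A2 did not pass the test. SLC43A1 lay below the level filter. Thus 7 of the 9 tested genes were higher and 0 lower (limma on log2(FPKM + 1), Benjamini-Hochberg adjusted p below 0.05), and 8 were higher and 0 lower at an unadjusted p below 0.05. Of all 13437 tested genes, all with a mean level of 1 FPKM or more, 56.2% were called, 31.0% higher and 25.2% lower. At an unadjusted limma p below 0.05, 4562 of the 13437 were higher and 3688 lower. In 8 of the 9, every metformin value lay above every PBS value, which held for 35.7% of all tested genes. The median log2 change of the 9 was 0.98, against 0.06 for all tested genes. Without both libraries numbered 3, 7 of the 9 were again higher and 0 lower, against 24.4% of all tested genes higher, 20.4% lower and 44.8% called in all.

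**Figure D1:**
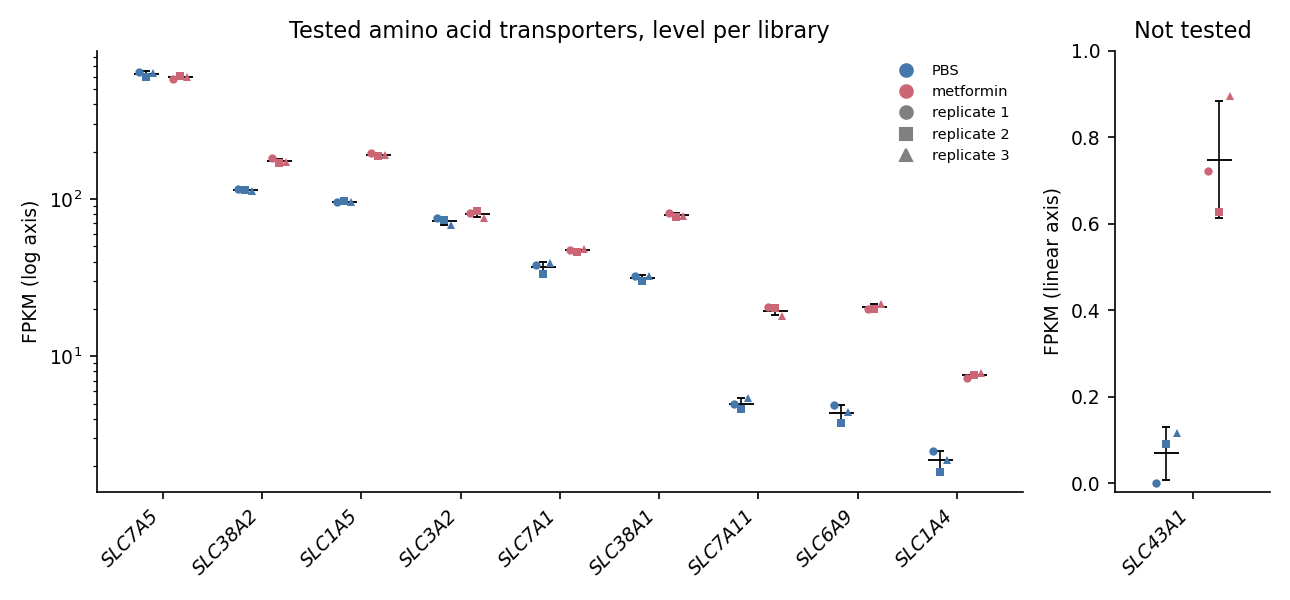
FPKM of the 10 transporter genes in each library, on a log axis for the 9 tested genes ordered by their PBS mean and on a linear axis for SLC43A1. Points are libraries, with the marker shape giving the replicate number, and bars are the mean and SD of 3 libraries; SLC6A9 lies between 3.76 and 4.88 with PBS and between 19.9 and 21.4 with metformin, whereas the SLC7A5 groups overlap.

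Among the carriers tied to SLC3A2, only SLC7A11 of the 10 genes passed the test. SLC7A11 (ENSG00000151012.13, chromosome 4, 138164097 to 138242349, minus strand, GRCh38), the cystine-glutamate exchanger xCT, had 4.98, 4.61 and 5.41 FPKM with PBS and 20.5, 20.1 and 18.0 with metformin. Every treated library lay above every PBS library. The means were 5.00 ± 0.401 and 19.5 ± 1.34 (SD, n = 3), a 3.91-fold ratio and a log2(FPKM + 1) change of 1.77 (SE 0.08, limma adjusted p = 9.24e-06), and 199 of the 13437 tested genes had a larger rise. SLC7A11-AS1, an RNA gene on the opposite strand, shares 865 exon bases with SLC7A11 and went from 0.372 to 1.97 FPKM. The sources used here do not state whether counting used strand, so fragments of the shared bases cannot be assigned to either gene.

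SLC3A2 (ENSG00000168003.16, chromosome 11, 62856102 to 62888875, plus strand), the heavy chain 4F2hc, had 75.3, 73.8 and 68.3 FPKM with PBS and 81.3, 83.6 and 75.8 with metformin. The groups were apart, but by less than 1 FPKM. The log2 change of 0.15 (95% interval 0.003 to 0.287) missed the threshold (limma adjusted p = 0.0766). With libraries rescaled to an equal sum it passed (limma adjusted p = 0.0395), and with median-of-ratios scaling it was 0.07 (adjusted p = 0.376), so the call depends on the scaling. Without metformin replicate 3 it also passed (limma adjusted p = 0.0499).

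SLC7A5 (ENSG00000103257.8, chromosome 16, 87830023 to 87869488, minus strand), the system L light chain LAT1 that carries leucine and other large neutral amino acids, had 646, 595 and 636 FPKM with PBS and 580, 606 and 598 with metformin. The groups overlapped. The log2 change of -0.07 had a 95% interval of -0.18 to 0.03, that is a ratio between 0.885 and 1.02 (limma adjusted p = 0.187). Median-of-ratios scaling gave -0.15 and a call as lower (adjusted p = 0.0201), as did leaving out PBS replicate 2 (-0.11, limma adjusted p = 0.0491). The antisense gene AC126696.2 shares 271 exon bases with SLC7A5, at 3.01 FPKM with PBS and 1.45 with metformin.

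The ratio of SLC7A11 to SLC3A2 within a library was 0.0661, 0.0625 and 0.0792 with PBS and 0.252, 0.241 and 0.237 with metformin, 3.53-fold higher on average. The ratio of SLC7A5 to SLC3A2 was 8.58, 8.07 and 9.32 with PBS and 7.13, 7.24 and 7.90 with metformin, 1.17-fold lower. In both ratios the groups were apart, in opposite directions. Summing the 6 light chains known to join SLC3A2 gave 8.84 ± 0.645 light-chain FPKM per SLC3A2 FPKM with PBS and 7.82 ± 0.413 with metformin (SD, n = 3), and here the groups overlapped. The two-sided exact permutation p was 0.1 for each of the first 2 ratios and 0.2 for the sum. With 3 libraries a group, 0.1 is the smallest p the test allows, and adjusted over the 5 ratios compared here these were 0.125, 0.125 and 0.2. The ratios do not depend on scaling between libraries.

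**Figure D2:**
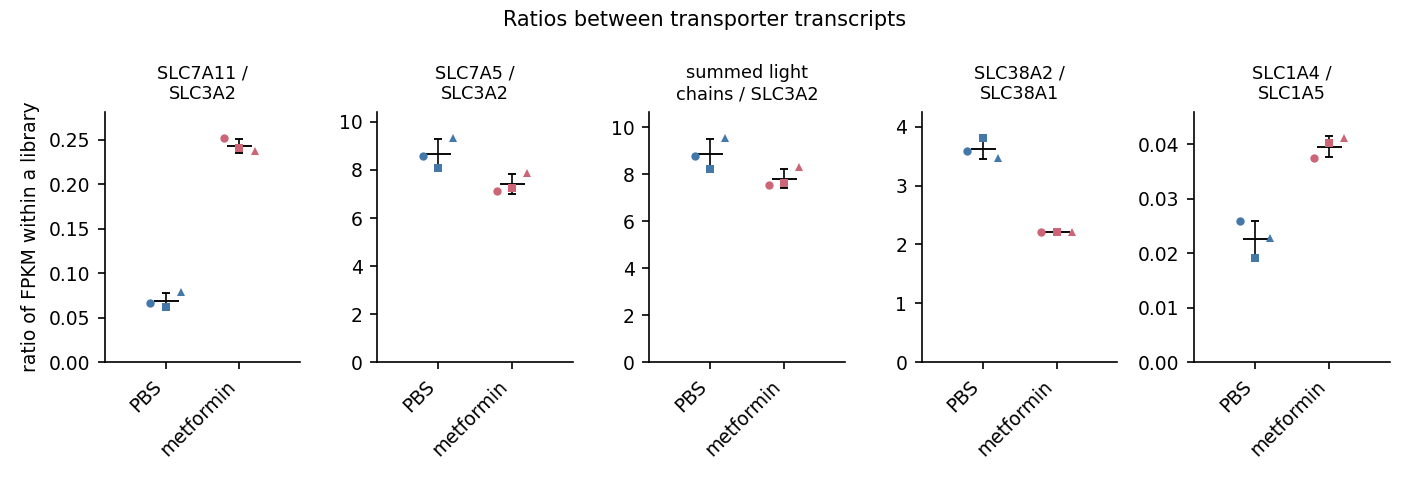
Ratio of FPKM values within each library for 5 pairs of transporter transcripts, each panel with its own linear axis from 0. Points are libraries by replicate number, and bars are the mean and SD of 3 libraries; SLC7A11 to SLC3A2 is 3.53-fold higher with metformin, while the summed light chains to SLC3A2 overlap between groups.

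Both carriers of the ASC type, which exchange small neutral amino acids with sodium, rose. SLC1A5 (ENSG00000105281.12, chromosome 19, 46774883 to 46788594, minus strand), the glutamine exchanger ASCT2, had 96.3, 96.4 and 96.2 FPKM with PBS and 195, 188 and 190 with metformin. The PBS libraries differed by less than 1 FPKM. The ratio of means was 1.98, and the log2 change was 0.98 (SE 0.04, limma adjusted p = 5e-06). The antisense gene AC008622.2 shares 780 exon bases with SLC1A5 and moved alongside it, from 74.5 ± 8.51 to 146 ± 17.3 FPKM (SD, n = 3). Without knowledge of strand in the counting, the values of this pair cannot be told apart on the shared bases.

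SLC1A4 (ENSG00000115902.10, chromosome 2, 64988477 to 65023865, plus strand), the serine and alanine exchanger ASCT1, had 2.49, 1.84 and 2.19 FPKM with PBS and 7.30, 7.54 and 7.81 with metformin. It was the least abundant of the 9 tested genes in either group. The groups were apart, with a 3.47-fold ratio of means and a change of 1.43 on the log2 scale (SE 0.09, limma adjusted p = 3.88e-05). The ratio of SLC1A4 to SLC1A5 was 0.0226 ± 0.00338 with PBS and 0.0396 ± 0.00188 with metformin (SD, n = 3, exact permutation p = 0.1, adjusted 0.125), and the ratio in every treated library lay above that in every PBS library.

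The system A carriers, which take up small neutral amino acids such as alanine and glutamine together with sodium, are neighbours on chromosome 12 and both rose. SLC38A1 (ENSG00000111371.15, 46183063 to 46270017, minus strand), SNAT1, had 32.2, 30.0 and 32.5 FPKM with PBS and 81.6, 76.7 and 78.0 with metformin, a 2.50-fold ratio and a change of 1.29 on the log2 scale (SE 0.05, limma adjusted p = 6.49e-06). SLC38A2 (ENSG00000134294.13, 46358189 to 46372867, minus strand), SNAT2, known to be induced when amino acids are scarce, had 115, 114 and 113 FPKM with PBS and 181, 170 and 172 with metformin. Its ratio of means was 1.53 and its log2 change 0.61 (SE 0.04, limma adjusted p = 4.61e-05). SLC38A2 remained the more abundant, but its ratio to SLC38A1 fell from 3.59, 3.80 and 3.47 with PBS to 2.22, 2.22 and 2.21 with metformin. The groups were apart, and the exact permutation p was 0.1 (adjusted 0.125).

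SLC6A9 (ENSG00000196517.11, chromosome 1, 43991500 to 44031467, minus strand), the sodium- and chloride-coupled glycine carrier GLYT1, showed the largest log2 change of the 9 tested genes. It had 4.88, 3.76 and 4.44 FPKM with PBS and 19.9, 20.1 and 21.4 with metformin. The groups were far apart, with a 4.70-fold ratio of means and a change of 2.01 on the log2 scale (SE 0.09, limma adjusted p = 9.08e-06), and 118 tested genes rose more. CCDC24, on the opposite strand, shares 404 exon bases with SLC6A9 and had 2.93 FPKM with PBS and 2.19 with metformin.

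SLC7A1 (ENSG00000139514.12, chromosome 13, 29509410 to 29595688, minus strand), the arginine and lysine carrier CAT1, had 37.8, 33.4 and 39.1 FPKM with PBS and 47.6, 45.9 and 48.1 with metformin. The groups were apart, and the log2 change of 0.35 (SE 0.07, limma adjusted p = 0.00421) was the smallest of the 7 that passed. SLC43A1 (ENSG00000149150.8, chromosome 11, 57484534 to 57515786, minus strand), the sodium-independent system L facilitator LAT3, was listed at 0, 0.0906 and 0.117 FPKM with PBS and at 0.721, 0.628 and 0.895 with metformin. The groups were apart, at levels that correspond to about 0 to 3.65 fragments per PBS library and 18.7 to 27.1 per metformin library if its whole exon length of 3532 bases is counted. Fitted without the level filter, its log2(FPKM + 1) change was 0.71 (limma adjusted p = 0.00233), a scale that understates changes at such levels.

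Summed over the 10 genes, transporter transcripts reached 989 ± 32.0 FPKM with PBS and 1214 ± 3.65 with metformin (SD, n = 3). SLC7A5 made up 63.3% ± 0.729 of this sum with PBS and 49.0% ± 1.07 with metformin. The other 9 genes summed to 363 ± 5.95 and 620 ± 12.8 FPKM. With PBS the order by level was SLC7A5, SLC38A2, SLC1A5, SLC3A2, SLC7A1, SLC38A1, SLC7A11, SLC6A9, SLC1A4 and SLC43A1, and only the neighbours SLC7A11 and SLC6A9 overlapped in their library values. With metformin SLC1A5 stood above SLC38A2, SLC38A1 above SLC7A1 and SLC6A9 above SLC7A11. There the libraries of SLC3A2 and SLC38A1 overlapped, as did those of SLC6A9 and SLC7A11.

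**Figure D3:**
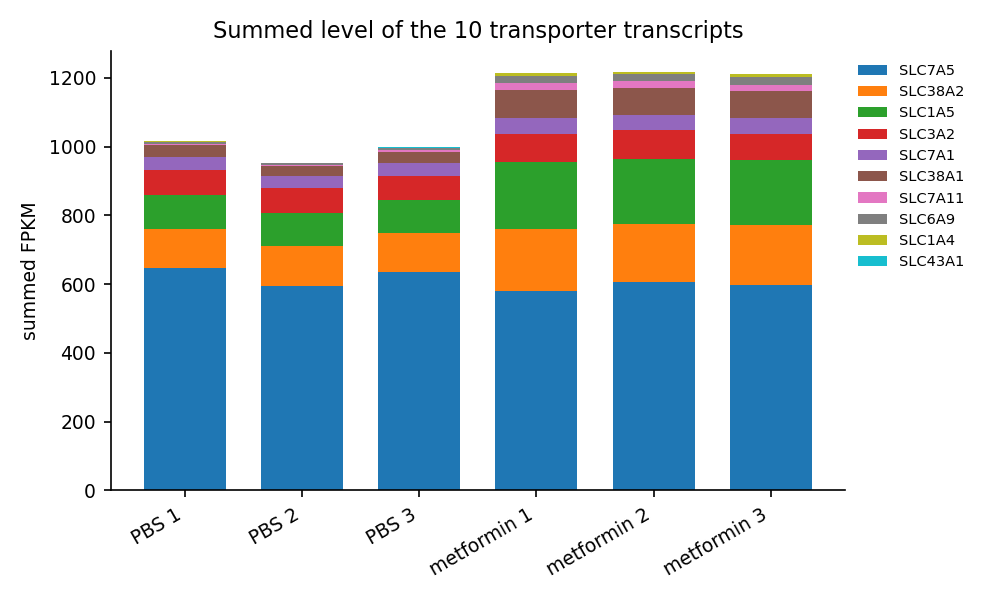
Summed FPKM of the 10 transporter genes in each of the 6 libraries, stacked by gene in the order of the PBS means. The SLC7A5 segment is of similar height in all libraries, while the summed height is 989 on average with PBS and 1214 with metformin.

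Most other amino acid transporters of the plasma membrane were not tested. Of 29 such genes, 22 lay below the filter, and 9 of these were listed at 0 in every library, which is not read as absence. Of the 7 tested, 3 were higher and 0 lower, also at an unadjusted p below 0.05, with a median log2 change of 0.41. SLC6A15, a carrier of branched-chain amino acids and proline, rose 1.90-fold from 4.32 ± 0.288 to 8.19 ± 0.565 FPKM (SD, n = 3, limma adjusted p = 0.000233). SLC7A6, another light chain that joins SLC3A2, rose 1.40-fold from 8.08 ± 0.378 to 11.3 ± 0.234, but it shares 3371 exon bases with SLC7A6OS on the opposite strand, which went from 10.2 to 16.7 FPKM. SLC38A4, a further system A carrier, went from 1.02 ± 0.132 to 1.69 ± 0.349 (limma adjusted p = 0.0297), but it did not pass when PBS replicate 1, PBS replicate 3 or metformin replicate 1 was left out (limma adjusted p = 0.0703, 0.0848 and 0.0803), without both libraries numbered 3 (0.0895) or with no level filter (0.0736). Over all 191 tested genes with an SLC symbol, 61 were higher and 40 lower, and the median log2 change was 0.11. Both counts, of the 7 and of the 191, stand beside 31.0% higher and 25.2% lower among all tested genes.

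Transporters inside the cell moved both ways, with 4 of 15 tested genes higher and 5 lower, shares close to the 31.0% and 25.2% of all tested genes. Of the 6 tested lysosomal genes, 3 were higher and 1 lower. PQLC2, the lysosomal exporter of cationic amino acids, rose 1.75-fold from 5.92 ± 0.493 to 10.4 ± 0.471 FPKM (SD, n = 3). CTNS, the lysosomal cystine exporter, rose 1.38-fold and SLC38A9, a lysosomal arginine sensor for mTORC1, 1.37-fold. Without both libraries numbered 3 these 2 calls were lost (limma adjusted p = 0.0743 and 0.0528). SLC36A4, a carrier of the proton-coupled SLC36 family, fell 1.36-fold from 3.69 ± 0.119 to 2.70 ± 0.102 FPKM (SD, n = 3, limma adjusted p = 0.00663), and is named after its value was seen. Of the 9 tested mitochondrial genes, 1 was higher and 4 lower. SLC25A13 and SLC25A12, the aspartate-glutamate carriers of the malate-aspartate shuttle, fell 1.81-fold (from 20.8 ± 0.862 to 11.5 ± 0.852) and 1.68-fold (from 5.10 ± 0.301 to 3.04 ± 0.265). SFXN1, a mitochondrial serine carrier, fell 1.64-fold and its relative SFXN3 1.55-fold. SLC25A38, the mitochondrial glycine carrier, rose 1.45-fold from 9.27 ± 0.813 to 13.4 ± 0.568. Its direction was that of the plasma membrane glycine carrier SLC6A9.

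**Figure D4:**
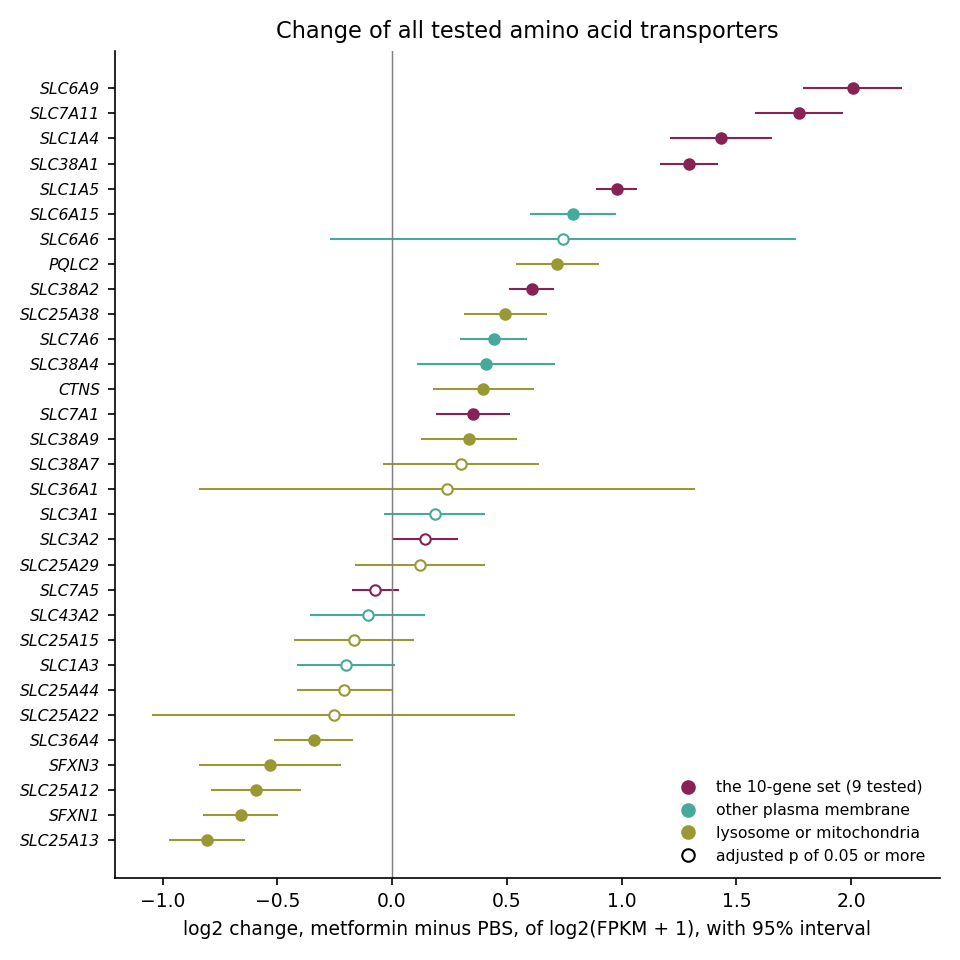
Change from PBS to metformin in log2(FPKM + 1) with its 95% interval from limma for the 31 tested amino acid transporters, coloured by group, with open circles where the adjusted p was 0.05 or more. SLC6A9 and SLC7A11 lie at the top with 2.01 and 1.77, and the mitochondrial carrier SLC25A13 at the bottom with -0.81.

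Genes of cysteine and glutathione metabolism also moved both ways, with 7 of 15 tested genes higher and 6 lower, beside 31.0% and 25.2% of all tested genes. Their median log2 change was 0.32. The 4 largest rises were in GCLC, CHAC1, CTH and GCLM. GCLC, the catalytic subunit of the first and limiting step of glutathione synthesis, rose 2.31-fold from 7.26 ± 1.46 to 16.8 ± 0.878 FPKM (SD, n = 3), and GCLM, its modifier subunit, 1.67-fold. CTH, which makes cysteine from cystathionine, rose 1.87-fold. CHAC1, which breaks glutathione down and is known to be induced through ATF4, had 1.19, 1.92 and 1.30 FPKM with PBS and 3.57, 3.00 and 5.93 with metformin (limma adjusted p = 0.00692). The 4 largest falls were in OPLAH, which recovers glutamate from oxoproline, 2.52-fold, GPX4, the peroxidase that reduces lipid peroxides with glutathione, 1.75-fold from 31.0 ± 3.60 to 17.7 ± 0.654, GSR, glutathione reductase, 1.58-fold, and GGCT, which makes oxoproline, 1.42-fold.

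Of 17 tested transcription factors and partners known to act on transporter genes, 11 were higher and 2 lower. Of all tested genes, 31.0% were higher and 25.2% lower. TFEB lay below the level filter and fell from 1.37 ± 0.327 to 0.380 ± 0.140 FPKM (SD, n = 3), with the groups apart. Fitted without a level filter, 11 genes of this list were higher and 3 lower. On the log2(FPKM + 1) scale the 4 largest rises were in DDIT3, TRIB3, ATF3 and CEBPG. DDIT3 (CHOP) rose 14.6-fold, TRIB3, a pseudokinase that restrains ATF4, 9.65-fold, ATF3 7.03-fold, and CEBPG, a C/EBP partner of ATF4, 3.85-fold from 12.3 ± 0.255 to 47.3 ± 0.911 FPKM (SD, n = 3). HIF1A, the hypoxia factor, fell 3.04-fold from 147 ± 5.25 to 48.4 ± 0.992. MXD1, a MAX partner, ATF4 itself and NFE2L2, the gene of NRF2, are added here after their values were seen. MXD1 rose 5.88-fold from 0.868 ± 0.193 to 5.11 ± 0.281 FPKM (SD, n = 3), a larger ratio than that of CEBPG. The PBS mean of MXD1 alone lay below the 1 FPKM of the level filter. ATF4 had 128, 133 and 132 FPKM with PBS and 214, 211 and 223 with metformin (limma adjusted p = 2.42e-05), and NFE2L2 had 7.55, 7.92 and 6.71 with PBS and 19.8, 19.5 and 18.6 with metformin (limma adjusted p = 2.42e-05). In all 3 the groups were apart. DDIT3, HIF1A, CTNS and SLC25A12 share exon bases with a tested gene on the opposite strand. No relation between these factors and the transporters was tested.

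**Figure D5:**
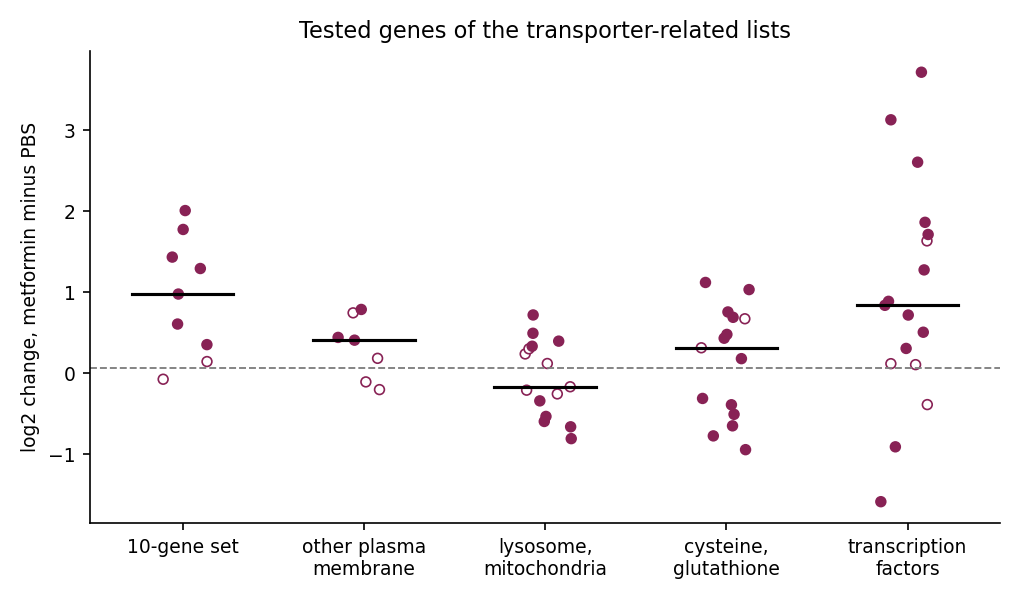
Log2 change (metformin minus PBS) of each tested gene in 5 lists, with filled points where the adjusted p was below 0.05 and a bar at the median of each list. The dashed line is the median of all 13437 tested genes, 0.06; the 10-gene set has a median of 0.98 over its 9 tested genes and the list of lysosomal and mitochondrial transporters one of -0.17.

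The mean standardized profile of the 7 transporters that rose was compared with all other tested genes across the 6 libraries. The 5 with the highest Pearson r, from 0.99945 to 0.99989, were GOLGA3, ATF7, EIF4G3, UBE2H and CTAGE4, the last of a family with near-identical copies. In all, 521 genes had an r above 0.99. With 2 groups of 3 libraries, r rests mostly on the difference between the groups, so the likeness is a description.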

How the data were processed

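Each deposited file holds gene identifiers and FPKM values made by the authors, per the file headers. The genome build was GRCh38, per the submitters' processing notes. Aligner, counting tool, strandedness and gene annotation are not given in the sources used. Identifiers without version were matched to GENCODE 29, which named 57980 of 58243. All 37 genes encoded in the mitochondrial genome were at 0 in all files, so a listed 0 is not read as absence. No counts were used. Depth was estimated from genes with 1 annotated transcript.

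Values were fitted as log2(FPKM + 1) with limma 3.58.1 in R 4.3.3 (trend, group only, two-sided, Benjamini-Hochberg adjustment over the 13437 genes whose mean reached 1 FPKM) and the fit was tested on simulated data. Ratios were tested by exact permutation (SciPy 1.17.1). The 10 genes, the lists and the motifs were chosen with earlier results of these data known. The text names the 10 genes, their exon-sharing neighbours, up to 4 rises and 4 falls among passing genes of each other list, marker genes and the 5 most alike profiles; 1 gene that this rule names is not reported here. Alternatives were 2 pseudocounts, 2 level filters, 2 scalings, no trend, a replicate block, each library left out in turn and, added after seeing the data, both libraries numbered 3 left out.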

Additional observations from a re-analysis of the deposited data

How the results depend on the processing

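SLC7A11, SLC7A1, SLC1A4, SLC1A5, SLC38A1, SLC38A2 and SLC6A9 were called higher under every alternative in which they were tested (14 for SLC1A4, which a filter at 5 FPKM removed, and 15 for the others). Their log2 changes ranged from 0.28 for SLC7A1 to 2.24 for SLC6A9. The calls of SLC3A2 and SLC7A5 depended on scaling. SLC3A2 was 0.17 after rescaling to an equal sum, and 0.10 to 0.185 with single libraries left out. SLC7A5 was -0.15 with median-of-ratios scaling, which moved the median of all tested genes by -0.06, and -0.11 to -0.05 with single libraries left out. The count of lower transporters among the 10 was therefore 1 with median-of-ratios scaling and 0 to 1 with single libraries left out. A filter at 5 FPKM tests fewer genes and gave 4738 calls, 2401 of them higher, 34 higher and 25 lower SLC genes, 3 lower intracellular transporters and 4 higher genes of cysteine and glutathione metabolism. Among other plasma membrane transporters 5 were higher without a level filter and 1 lower with median-of-ratios scaling. Deviations of libraries with the same replicate number had r = -0.000355, 0.0304 and -0.0105, not every library correlated best with its own number, and the numbers are not taken as pairs. With the replicate block 7139 genes were called against 7549, and 7 of the 10 transporters were again higher. Among the 10 genes, the marker genes and the largest rises and falls named from each list, the block moved 2 calls. These were SLC38A4 (limma adjusted p = 0.0503) and HBB (0.0145). The other named genes, among them those named after their values were seen, were not checked. The ratios kept their direction in all alternatives run, and the change of SLC1A4 to SLC1A5 was 0.46 rather than 0.82 on the log2 scale with a pseudocount of 1. Depth limits SLC43A1 most, with few fragments per PBS library.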

Other observations

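A few transporters, named here after their values were seen, had 1 library far from the others of its group. SLC6A6, the taurine carrier, had 9.65, 9.57 and 2.41 FPKM with PBS and 10.7, 11.3 and 11.6 with metformin (limma adjusted p = 0.178). SLC36A1, a proton-coupled lysosomal carrier of small amino acids, had 3.72, 3.72 and 3.81 with PBS and 6.87, 1.52 and 7.89 with metformin (limma adjusted p = 0.674). SLC25A22, a mitochondrial glutamate carrier, had 19.1, 18.3 and 16.4 with PBS and 20.1, 20.3 and 7.85 with metformin (limma adjusted p = 0.542).

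Below the level filter, and again named after their values were seen, SLC7A7, a light chain that exports cationic amino acids, was listed at 0, 0.0572 and 0.0915 FPKM with PBS and at 0.479, 0.554 and 0.395 with metformin. SLC25A18, a second mitochondrial glutamate carrier, was listed at 0.0609, 0.0198 and 0.125 with PBS and at 0.786, 0.639 and 0.709 with metformin. In both the groups were apart, and fitted without the level filter both were higher (limma adjusted p = 0.00311 for SLC7A7 and 0.0013 for SLC25A18). Named in the same way, SLC7A9, SLC38A5 and SLC6A20 were higher in every metformin library than in every PBS library, and SLC7A8 and SLC6A7 lower. SLC7A8 was at 0.686, 0.527 and 0.657 FPKM with PBS and at 0.361, 0.237 and 0.399 with metformin. Without the filter neither fall passed (limma adjusted p = 0.0619 for SLC7A8 and 0.0947 for SLC6A7). How often groups lie apart among all genes below the filter was not counted.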
